A study of Arabidopsis thaliana with 16 samples.

Results

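Among the root cell populations of iron-deficient Arabidopsis thaliana, 91 probe sets were low in the epidermal population alone. They were chosen from the mean signals of all arrays. The mean had to be at least 200 in each of columella, cortex, endodermis and stele, and the lowest of these 4 means at least 3 times the epidermal mean. Of 22669 nuclear probe sets that are not controls, 4538 had a mean of at least 200 in the other 4 populations, and the 91 members are 2.01% of those. The limit of 300 members was not reached. The array annotation names 1 gene for 38 members, of which 11 have a symbol and 27 a locus tag only, and it names no gene for 53.

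The study measured transcript levels in sorted root cells with 16 Affymetrix arrays. Seedlings of the Columbia ecotype, 6 days after germination, spent 24 h on medium in which ferrous sulfate was replaced with 0.3 mM ferrozine, a chelator of ferrous iron. The walls of root cells were then digested away, and the protoplasts that fluoresced green were sorted. The reporter WER::GFP marked the epidermis together with the lateral root cap (4 arrays), PET111 the columella root cap (3 arrays), CORTEX the cortex (3 arrays), SCR::GFP the endodermis together with the quiescent center (3 arrays), and WOL::GFP the stele, the central cylinder with the vascular tissue (3 arrays). Below, each population goes by the name of its main tissue. All arrays came from iron-deficient roots, and none from roots with iron is used here, so every value is a level under iron deficiency and not a response to it. The labels do not say that replicates were separate cultures, so p-values measure only the spread between these arrays, which may be technical. Precision is limited by having 3 or 4 arrays for each population.

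The root is built as nested layers. The epidermis, outermost, grows the root hairs and takes up iron, the cortex lies beneath it, and the endodermis surrounds the stele and seals the space between its cells with a lignified band. The stele holds xylem and phloem, and xylem vessels thicken their walls with xylan and lignin. The root cap covers the tip: the columella forms its centre and the lateral root cap its flanks.

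The arrays differed in quality as follows. Log2 signals of arrays of the same population correlated at 0.931 to 0.983 (Pearson r across probe sets, which are not independent), and those of different populations at 0.784 to 0.916. Epidermis replicates 1 to 3 correlated with each other at 0.976 to 0.983 and with replicate 4 at 0.931 to 0.957. Replicate 4 correlated with the cortex arrays at 0.898 to 0.916, against 0.834 to 0.872 for replicates 1 to 3. The control probe set for 25S ribosomal RNA was at 5363, 8289, 5670 and 1087.5 in epidermis replicates 1 to 4. It was at 3143 to 4999 in the columella, 1178 to 1656 in the cortex, 3625 to 5115 in the endodermis and 586.1 to 2629 in the stele. Of the epidermis and root hair markers 3 of 8 were named on the array (TRY, EXPA7 and EXPA18), and their summed signals in the epidermis arrays were 1132, 763.0, 576.9 and 469.5. These markers did not separate the epidermis from the cortex or stele, where the sums ran from 321.9 to 1326 and from 391.7 to 667.7. They were 130.3 to 241.3 in the columella and 143.9 to 364.9 in the endodermis. For 4 cortex markers the sums there were 193.7, 90.5, 113.5 and 329.8, against 3618 to 5709 in the cortex arrays. The cortex sums rest on AT1G09750, PMEPCRF and F6'H1, since the probe set of CO2 was low in every population, with means of 5.37 to 26.8. Of 6 root cap markers RCPG and PASPA3 were named, and their sums in the epidermis were 3045, 1542, 2695 and 7138, with 7632 to 8643 in the columella and 1456 to 2141 in the stele. RCPG was at 1802, 817.0, 1691 and 3737 in the epidermis and at 6916 to 7878 in the columella. PASPA3 was at 1244, 725.1, 1004 and 3401 in the epidermis, at 548.2 to 850.8 in the columella and at 1434 to 2069 in the stele. Replicate 4 was the highest epidermis array for the cortex sum and for both root cap markers. None of the 6 endodermis and 6 stele markers was named. The part of these differences in the results below was not tested.

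The label "silent" was checked first, and the signals went against it for part of the members, such as the 19 with an epidermal mean of 200 or more. No detection call was used, so low signals do not tell a low transcript from an absent one. The epidermal mean of a member ranged from 28.5 to 2346, with a median of 101.4. It was below 38.05, the 40th percentile of the whole table, for 4 members, below 100 for 45 and below 200 for 72, and 19 members had an epidermal mean of 200 or more. For 36 members all epidermis arrays lay above the median signal of their array, and for 6 all lay below it. No member had all 4 epidermis arrays below the 40th percentile of the table. This count depends on replicate 4, which was the highest epidermis array for 80 members. The member PDC2, for example, was at 18.6, 8.75 and 15.7 in replicates 1 to 3 and at 93.0 in replicate 4. Without replicate 4 the median of the epidermal means was 70.4. Signals of different probe sets do not compare as amounts of transcript, and these counts only place the members on the scale of the array. The members are therefore called low in the epidermis.

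The ratio that chose the members, the lowest mean of the other 4 populations over the epidermal mean, ran from 3.02 to 15.9 with a median of 4.44. It was at least 5 for 35 members, at least 8 for 9 and at least 10 for 3. Among all 4538 probe sets with a mean of at least 200 in the other populations the median ratio was 0.67, and 78.5% had a ratio below 1. Because the ratio takes the lowest of 4 means, a value below 1 says only that the epidermis was not the lowest population. The same rule with another population in the place of the epidermis gave 95 probe sets for the columella, 26 for the cortex, 31 for the endodermis and 6 for the stele. In bulk arrays of this kind, fewer cells of a type in a sorted population and less transcript per cell cannot be told apart.

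**Figure D1:**
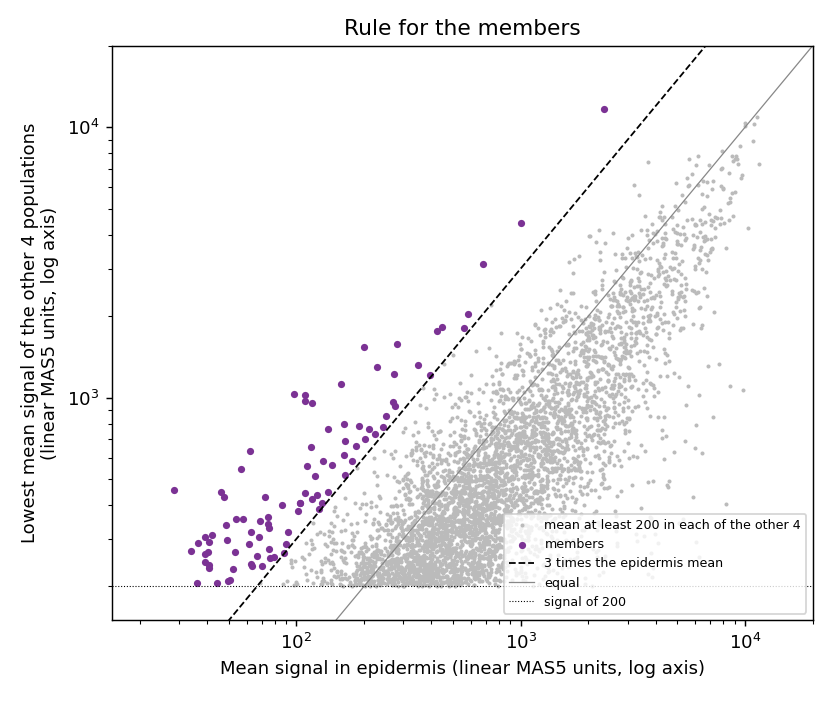
Mean signal in the epidermis (horizontal) against the lowest mean of columella, cortex, endodermis and stele (vertical), both in linear MAS5 units on log axes, for the 4538 probe sets with a mean of at least 200 in those 4 populations. The 91 members lie on or above the dashed line of 3 times the epidermal mean, from an epidermal mean of 28.5 to 2346. Most other probe sets lie below the line of equality, where the epidermis was not the lowest population.

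The highest ratio belonged to a probe set with no gene in the annotation, and its values show the pattern at its widest. Its signals were 15.7, 4.66, 5.26 and 88.4 in the epidermis. They were 760.8, 386.2 and 216.6 in the columella and 502.3, 476.1 and 459.2 in the cortex. They were 957.5, 931.8 and 1056 in the endodermis and 1553, 1725 and 2107 in the stele. The epidermis arrays did not overlap with any other array, and the highest of them was replicate 4.

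The epidermis arrays were not alike in how low the members were. The median signal of the 91 members was 87.7, 51.9, 63.1 and 167.5 in epidermis replicates 1 to 4. In the columella arrays it was 800.1, 700.7 and 429.7, and in the cortex arrays 698.1, 727.7 and 655.3. It was 1734, 1496 and 1827 in the endodermis arrays and 1704, 1774 and 1679.6 in the stele arrays. The epidermis arrays were thus the 4 lowest, columella replicate 3 the lowest of the others, and the endodermis and stele arrays the 6 highest. The members were chosen to be low in the epidermis, so that gap is the rule's own, while the order of the other populations is not.

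**Figure D2:**
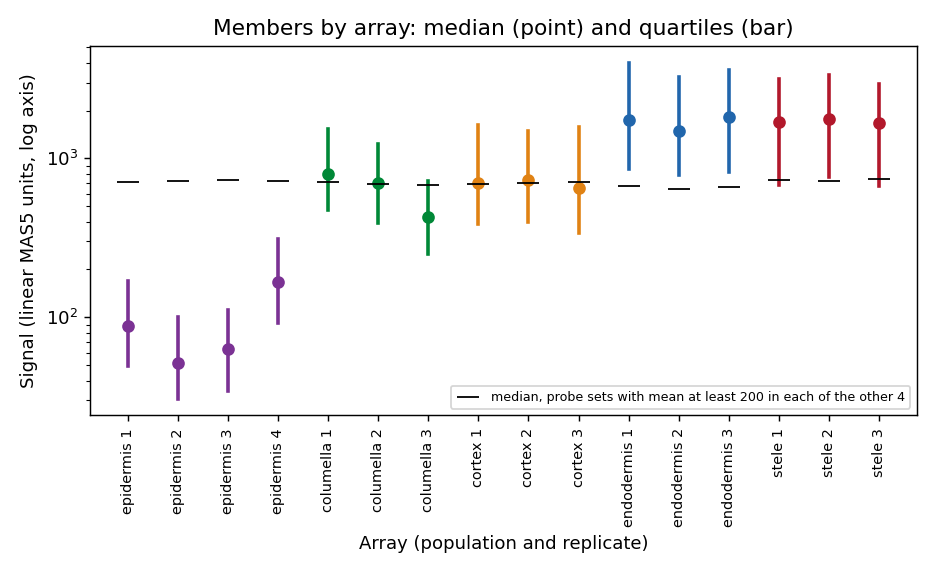
Signal of the 91 members in each array (linear MAS5 units, log axis), with the median as a point and the quartiles as a bar, and with the median of the 4538 probe sets of mean at least 200 outside the epidermis as a black dash. Member medians run from 51.9 to 167.5 in the epidermis, from 429.7 to 800.1 in columella and cortex, and from 1496 to 1827 in endodermis and stele, while the dashes lie between 645.1 and 737.1.

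Replicate 4 was the highest epidermis array for 80 members (87.9%), compared with 42.7% of the 4538 probe sets. Its signal was a median of 2.46 times the mean of replicates 1 to 3 (range 0.593 to 10.4), compared with 1.04 times for the 4538. It was at least 2 times that mean for 53 members. Every epidermis array was below every other array for 67 members, which is part of what the rule selects (4.59% of all probe sets tested). For the other 24 the highest epidermis array was always replicate 4, and for 17 of them the lowest other array was columella replicate 3. With epidermis replicates 1 to 3 alone, 88 members did not overlap with the other arrays. This too is part of what the rule selects. Its share over all probe sets was not counted, so nothing is read from it. Without replicate 4 the median ratio was 6.27, and the rule took 116 probe sets, of which 90 were members. The part of root cap or cortex transcripts in the signals of replicate 4 was not tested.

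**Figure D3:**
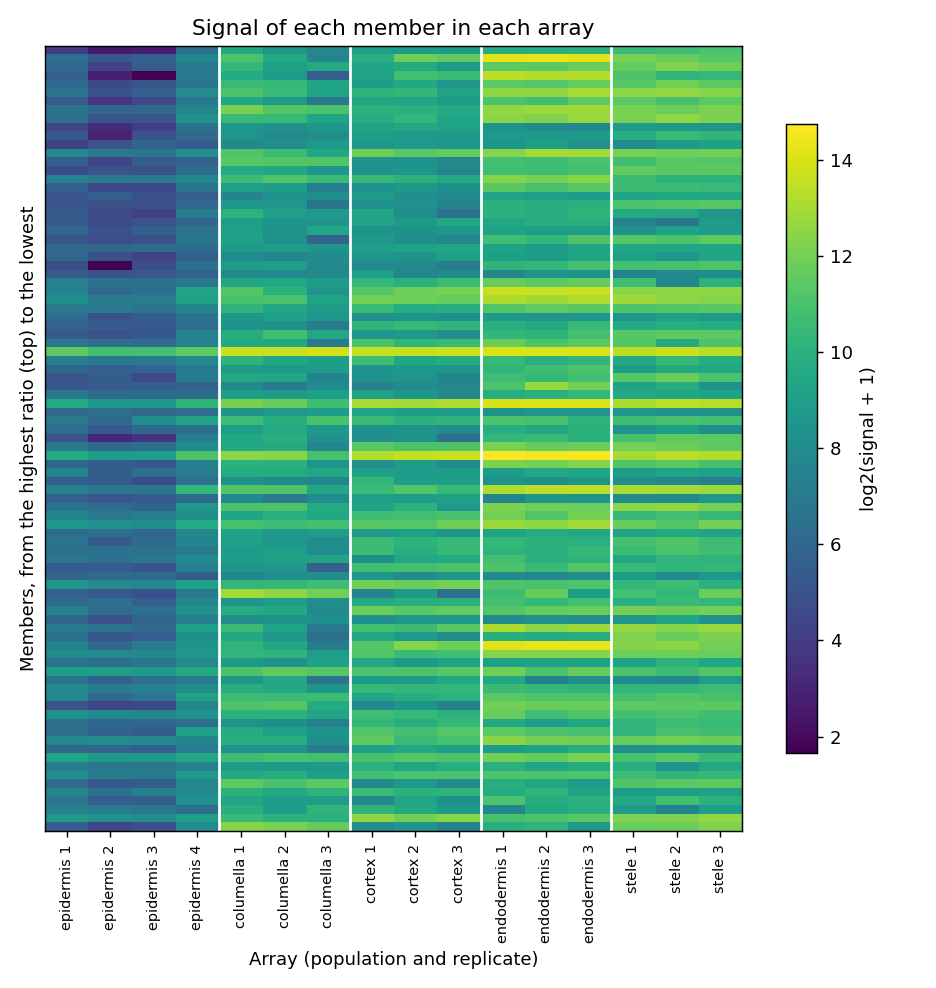
Log2(signal + 1) of each of the 91 members (rows, from the highest ratio at the top to the lowest) in each of the 16 arrays (columns, grouped by population). Epidermis replicates 1 to 3 are the darkest columns, replicate 4 is brighter in 80 of the 91 rows, and endodermis and stele columns are brighter than columella and cortex in many rows.

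How the members were distributed over the other 4 populations was tested with limma on log2(signal + 10.21), fitted to all 16221 probe sets above a low signal filter, with p-values adjusted by Benjamini and Hochberg over all of them. All 91 members passed the filter, which the rule makes certain. Folds given with an adjusted p are on that log2 scale, and all calls are at an adjusted p under 0.05. Against the epidermis, 91 of 91 members were lower than in each of the other 4 populations (background 5.56%), which restates the rule and is not read further. The background for lower in the epidermis than in 1 other population was 23.8% for the columella, 21.4% for the cortex, 27.6% for the endodermis and 19.2% for the stele. Among columella, cortex, endodermis and stele, 73 members (80.2%) differed by the F test, against a background of 73.7% of all probe sets tested, so the members differed among these populations about as often as other probe sets did.

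The direction was less even. Most calls placed endodermis or stele above columella or cortex. Endodermis was higher than columella for 54 members (background 23.3%) and lower for 3 (background 20.9%). Stele was higher than columella for 51 members (background 24.1%) and lower for 1 (background 19%). Endodermis was higher than cortex for 49 members (background 26.1%) and lower for 6 (background 18.3%). These pairs share arrays, so their counts are not independent of each other.

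Stele was higher than cortex for 33 members (background 20.9%) and lower for 5 (background 12.9%). Cortex was higher than columella for 29 (background 22.2%) and lower for 12 (background 27.3%). Between endodermis and stele the calls were fewer. Endodermis was higher for 14 members (background 14.6%), a share of 15.4% that is close to the background, and stele was higher for 7 (background 15.4%). Without columella replicate 3 the endodermis was higher than the columella for 49 members and the stele for 41, and without epidermis replicate 4 in the fit these counts were 62 and 53.

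**Figure D4:**
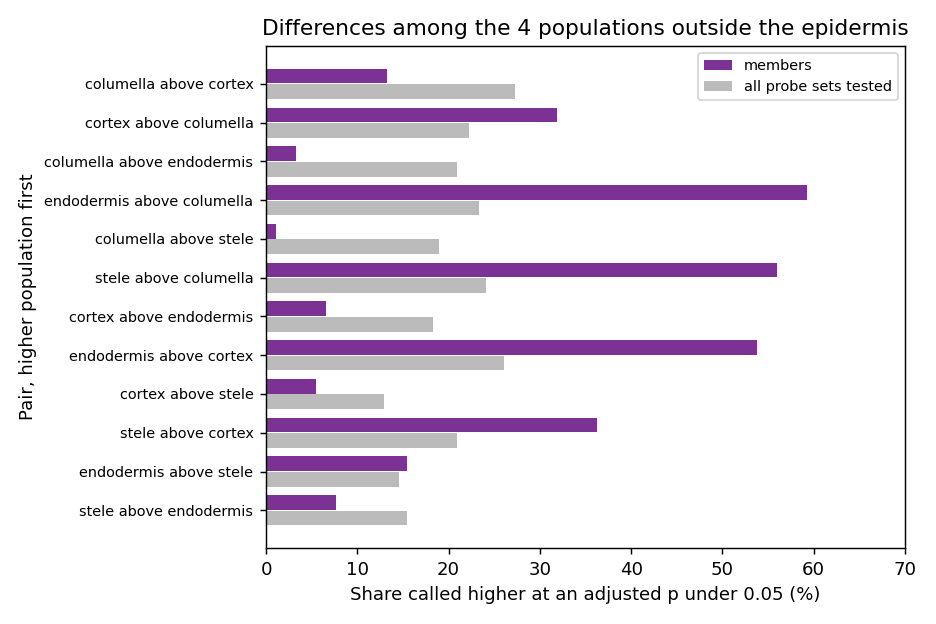
Share of the 91 members (purple) and of all 16221 probe sets tested (grey) called higher in the first-named population of each pair, in percent, at a limma adjusted p under 0.05. Endodermis above columella holds 54 members, stele above columella 51 and endodermis above cortex 49, each beyond its grey bar, and columella above stele holds 1.

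The sizes of the differences had the same order. The median over the 91 members of the log2 difference columella minus endodermis was -1.29, against -0.05 over all probe sets tested. For columella minus stele the medians were -1.08 and -0.09, and for cortex minus endodermis -1.002 and -0.21. For cortex minus stele they were -0.48 and -0.13, for columella minus cortex -0.35 and 0.14, and for endodermis minus stele 0.22 and 0.02. Quantile normalization moved the median of all probe sets by over 0.1 for the pairs of cortex with endodermis and with stele. Relative to all probe sets, these 2 member medians were -0.79 and -0.34 as deposited and -0.82 and -0.54 after quantile normalization.

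For 17 members (18.7%) both endodermis and stele were higher than both columella and cortex, against a background of 3.34%. Every endodermis and stele array lay above every columella and cortex array for 32 members (35.2%), against 5.28% of all probe sets tested. These patterns were counted after the order of the medians was seen. The 10 of the 17 that have a gene are SBT4.12, LCR68, HCT, AT3G21770, AT3G45700, AT1G55210, AT4G11210, AT5G03610, AT2G44300 and AT1G03920. By mean signal alone, the endodermis was the highest of the 4 for 47 members, the stele for 29, the cortex for 10 and the columella for 5. The columella was the lowest for 45, the cortex for 33, the stele for 10 and the endodermis for 3. Among the 4538 probe sets the endodermis was the highest for 22.8%, the stele for 24.7%, the cortex for 23.8% and the columella for 28.8%. Lowest among these probe sets was the columella for 29.5%, the cortex for 26.9%, the stele for 16.4% and the endodermis for 27.2%.

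SBT4.12 (AT5G59090) encodes a subtilase, a serine protease of the secretory pathway, and had the highest ratio of the members with a symbol, 10.2. Its signals were 68.5, 17.3, 44.9 and 118.7 in the epidermis, a mean of 62.4 ± 43.0 (SD, n = 4). They were 1349, 552.9 and 795.7 in the columella and 646.1, 822.4 and 441.4 in the cortex. They were 2782, 2815 and 3631 in the endodermis and 3258, 4707 and 3805 in the stele. The 6 endodermis and stele arrays lay above the 6 columella and cortex arrays. Cortex minus stele was -2.63 on the log2 scale (SE 0.42, limma adjusted p = 0.00016), and stele over endodermis was 1.27-fold (adjusted p = 0.57).

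LCR68 (AT2G02130) encodes a small cysteine-rich peptide of the defensin type, a group known for antimicrobial members. Its epidermal signals were 87.4, 31.8, 32.7 and 319.7. They were 1446, 1433 and 654.8 in the columella and 911.0, 1279.8 and 684.3 in the cortex. They were 5543, 4769.5 and 6675 in the endodermis and 4373, 6045 and 4551 in the stele. Epidermis replicate 4 was the highest of its group but below every other array, and endodermis and stele did not overlap with columella and cortex. Cortex minus endodermis was -2.58 (SE 0.55, limma adjusted p = 0.0012).

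3 symbols are of genes linked to lignin precursors or to xylan, and secondary walls hold xylan and lignin. HCT (AT5G48930) is the hydroxycinnamoyl transferase on the way to the lignin precursors. Its signals were 262.2, 244.3, 222.5 and 352.2 in the epidermis. They were 1229, 1159 and 497.8 in the columella, 2400.1, 1512 and 1769 in the cortex, 5312, 5326 and 5307 in the endodermis and 3677, 3755 and 3459 in the stele. The arrays of these 4 populations formed separate steps, columella lowest and endodermis highest. Each step but the last passed the test. Columella minus cortex was -1.05 (SE 0.28, limma adjusted p = 0.0044), cortex minus stele was -0.96 (adjusted p = 0.013), and endodermis minus stele was 0.55 (SE 0.28, adjusted p = 0.14). Without cortex replicate 2 the step from cortex to stele was not called (adjusted p = 0.065), and without columella replicate 3 the last step was (adjusted p = 0.046).

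BGLU46 (AT1G61820) encodes a beta-glucosidase that acts on glucosides of lignin precursors. Its signals were 63.8, 60.01, 46.8 and 148.2 in the epidermis and 306.4, 322.1 and 145.6 in the columella. They were 524.6, 722.9 and 522.7 in the cortex, 473.7, 603.3 and 968.6 in the endodermis and 284.4, 374.5 and 359.9 in the stele. Epidermis replicate 4 lay above columella replicate 3, so the groups overlapped. The columella was lower than cortex and endodermis, at -1.22 (SE 0.36, limma adjusted p = 0.0096) and -1.38 (SE 0.36, adjusted p = 0.0051). The first of these was lost without columella replicate 3 (adjusted p = 0.069).

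IRX15-L (AT5G67210) is needed for normal xylan synthesis. Its signals were 40.9, 24.7, 30.8 and 59.7 in the epidermis, 517.9, 372.4 and 344.5 in the columella and 625.8, 439.4 and 753.2 in the cortex. They were 706.7, 937.3 and 927.7 in the endodermis and 172.3, 112.0 and 456.6 in the stele. Here the stele was low. Endodermis minus stele was 1.98 (SE 0.38, limma adjusted p = 0.001) and cortex minus stele 1.46 (SE 0.38, adjusted p = 0.0072).

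Transport and methyl transfer are represented by GTR1 and PMEAMT. GTR1 (AT3G47960) is a glucosinolate importer of the plasma membrane. Its signals were 327.4, 239.4, 201.9 and 337.0 in the epidermis, 1086, 1074 and 636.9 in the columella and 1619.8, 1387 and 1084 in the cortex. They were 3328, 1691 and 2349.5 in the endodermis and 1755, 2107 and 1679.6 in the stele. The epidermis did not overlap with the rest, and every endodermis and stele array was above every columella and cortex array. Columella minus endodermis was -1.37 (SE 0.28, limma adjusted p = 0.00061), and endodermis over stele was 1.28-fold (adjusted p = 0.34).

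PMEAMT (AT1G48600) encodes a phosphoethanolamine methyltransferase of choline synthesis and is among the 3 members nearest the threshold, with a ratio of 3.06. Its signals were 419.4, 336.4, 273.9 and 549.2 in the epidermis, 1487, 1066 and 1073 in the columella and 6041, 3798 and 5194 in the cortex. They were 1969, 2180.2 and 2708 in the endodermis and 4534, 4772 and 6045 in the stele. Cortex and stele were high and overlapped, and the endodermis lay between them and the columella. Columella minus cortex was -2.03 (SE 0.25, limma adjusted p = 2.9e-06) and endodermis minus stele -1.16 (SE 0.25, adjusted p = 0.0022).

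The 4 remaining symbols have roles in metabolism and stress. PDC2 (AT5G54960) encodes a pyruvate decarboxylase, the first enzyme of ethanolic fermentation. Its signals were 18.6, 8.75, 15.7 and 93.0 in the epidermis, 356.9, 305.0 and 391.1 in the columella and 633.0, 693.2 and 580.5 in the cortex. They were 348.1, 249.5 and 215.8 in the endodermis and 465.8, 412.9 and 360.6 in the stele. No epidermis array reached any other array. The cortex arrays were the 3 highest, but the F test over the 4 populations did not pass (limma adjusted p = 0.077), while the pair cortex minus endodermis did (1.22, SE 0.42, adjusted p = 0.025). That call was lost without endodermis replicate 2 or 3 or cortex replicate 2 or 3, and with no pseudocount, at adjusted p of 0.052 to 0.089.

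COR47 (AT1G20440) encodes a dehydrin, a protein that builds up in cold and drought, and it was far from silent in the epidermis. Its signals were 2929, 1784, 1802 and 2867 in the epidermis, a mean of 2346 ± 638.7 (SD, n = 4). They were 13262, 12319 and 15136 in the columella and 12521, 12111 and 12598 in the cortex. They were 16435, 16157 and 17209 in the endodermis and 11028, 13754 and 10172 in the stele. The means of these 4 populations spanned 1.42-fold, and the F test did not pass (limma adjusted p = 0.098).

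MSRB5 (AT4G04830) encodes a methionine sulfoxide reductase, which repairs oxidised methionine. Its signals were 90.1, 51.9, 45.3 and 520.4 in the epidermis and 838.2, 556.2 and 346.6 in the columella. They were 2456, 1902 and 2490.0 in the cortex, 2772, 2203 and 1948 in the endodermis and 1184, 1962 and 1709.8 in the stele. Epidermis replicate 4 lay above columella replicate 3, and without it the epidermis arrays were all below 100. Columella minus endodermis was -2.05 (SE 0.57, limma adjusted p = 0.0079).

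ATB2 (AT1G60710) encodes a protein of the aldo-keto reductase type. Its signals were 89.4, 97.1, 90.4 and 138.4 in the epidermis and 473.0, 499.8 and 253.3 in the columella. They were 1609, 940.5 and 1367 in the cortex, 1156, 999.4 and 1315 in the endodermis and 1581, 2087 and 1704 in the stele. The columella lay between the epidermis and the rest without overlap. Columella minus stele was -2.15 (SE 0.27, limma adjusted p = 5.7e-06).

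**Figure D5:**
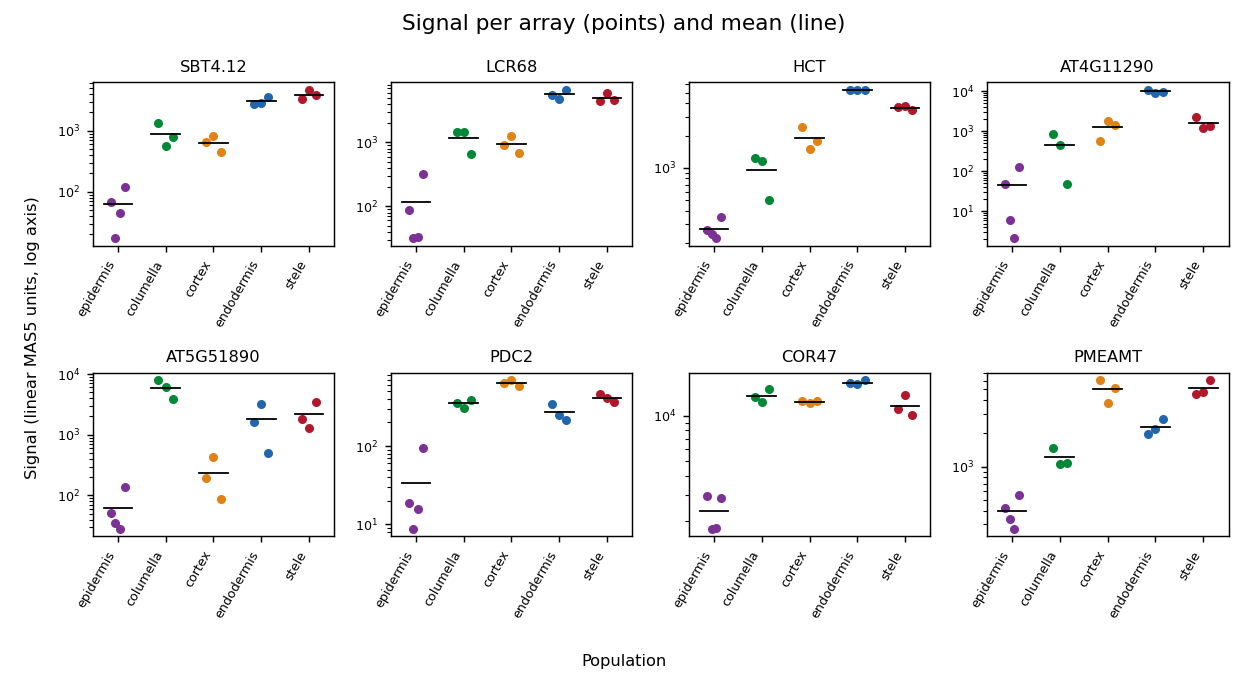
Signal per array (points) and mean (line) of 8 members in the 5 populations, in linear MAS5 units on log axes that differ between panels. SBT4.12, LCR68 and HCT are highest in endodermis and stele, AT4G11290 in the endodermis and AT5G51890 in the columella, PDC2 has 1 epidermis array at 93.0 above the other 3, COR47 is nearly level outside the epidermis, and PMEAMT is high in cortex and stele.

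The annotation gives the 27 other genes by locus tag only and states no product for them, so no role is given. AT4G11290 had the highest ratio of these, 9.65. Its signals were 48.7, 6.03, 2.16 and 128.3 in the epidermis, 838.2, 453.7 and 49.1 in the columella and 581.1, 1791 and 1433 in the cortex. They were 10845, 9244 and 9514 in the endodermis and 2230.5, 1178 and 1327 in the stele. Columella replicate 3 lay within the range of the epidermis, and the 3 endodermis arrays lay above all others. Endodermis over stele was 6.45-fold (log2 2.69, SE 0.84, limma adjusted p = 0.023). This call was lost without any 1 of the endodermis arrays, with adjusted p of 0.059, 0.052 and 0.056 without replicates 1, 2 and 3, and also without stele replicate 2 or 3 (0.068 and 0.067) and with no pseudocount (0.098).

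AT3G21770, with a ratio of 9.62, had signals of 70.1, 23.3, 32.5 and 101.0 in the epidermis. They were 1415, 1303 and 642.5 in the columella and 505.2, 776.5 and 354.8 in the cortex. They were 2801, 2530.0 and 3168 in the endodermis and 2629, 3974 and 2747 in the stele. Endodermis and stele overlapped with each other and lay above the rest. Cortex minus stele was -2.54 (SE 0.40, limma adjusted p = 0.00013), and columella minus cortex was 1.01 (SE 0.40, adjusted p = 0.043), a call lost under 11 of 25 alternatives, most without cortex replicate 3 (adjusted p = 0.19).

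AT3G45700, with a ratio of 8.98, had signals of 41.0, 12.0004, 20.8 and 116.4 in the epidermis. They were 726.5, 440.1 and 114.8 in the columella, 735.8, 683.0 and 461.7 in the cortex, 2134, 1749 and 2963 in the endodermis and 2755, 1992 and 2807 in the stele. Columella replicate 3 was just below epidermis replicate 4, and the endodermis and stele arrays were the 6 highest. Columella minus stele was -2.85 (SE 0.57, limma adjusted p = 0.00058).

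AT1G55210, with a ratio of 6.97, had signals of 46.1, 21.8, 22.1 and 104.0 in the epidermis. They were 574.9, 493.5 and 158.3 in the columella, 331.5, 392.5 and 290.4 in the cortex, 2648, 1966 and 2587 in the endodermis and 1563, 1576 and 1469.8 in the stele. No epidermis array reached another array, and the endodermis and stele arrays were again the 6 highest. Cortex minus endodermis was -2.79 (SE 0.44, limma adjusted p = 9.8e-05).

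AT3G06330, with a ratio of 7.96, had signals of 36.6, 6.45, 29.0 and 73.0 in the epidermis. They were 352.7, 236.9 and 276.6 in the columella, 537.9, 430.2 and 395.6 in the cortex, 412.1, 407.9 and 450.9 in the endodermis and 891.3, 1512 and 1202 in the stele. The stele stood above the rest without overlap. Stele over cortex was 2.57-fold (log2 1.36, SE 0.39, limma adjusted p = 0.013), a call lost without stele replicate 2 or cortex replicate 3 (adjusted p = 0.052 in both) and with no pseudocount (adjusted p = 0.071).

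A member was called highest in 1 of the 4 populations when it passed the test against each of the other 3. This held for 11 members in the endodermis (background 4.78%), 3 in the stele (background 3.21%), 2 in the cortex (background 6.08%) and 0 in the columella (background 10.4%). At an unadjusted p under 0.05 the counts were 16, 5, 3 and 1. The backgrounds above are for adjusted p, and none was counted for these, so nothing is read from them. The endodermis count was 5 without endodermis replicate 3 and 7 without endodermis replicate 1. The backgrounds above are for all arrays, and none was counted for fits with an array left out. The stele count was 1 without stele replicate 2. The cortex count was 4 without epidermis replicate 4, 1 without endodermis replicate 1 or 3 or cortex replicate 3, and 0 without endodermis replicate 2 or cortex replicate 1. The columella count was 1 without epidermis replicate 4, endodermis replicate 2 or stele replicate 3. No member with a symbol was among the 16 called with all arrays. Besides AT4G11290 and AT3G06330, those described next fell outside the rule for named genes and were chosen after their values were seen.

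AT1G03920 was at 35.3, 41.1, 47.8 and 53.1 in the epidermis, 241.3, 135.1 and 249.8 in the columella and 162.8, 250.1 and 207.2 in the cortex. It was at 2157, 6865 and 4191 in the endodermis and at 636.4, 882.1 and 331.0 in the stele. Its endodermis arrays lay above all others, and its epidermis arrays differed little from each other. Endodermis over stele was 6.83-fold (log2 2.77, SE 0.38, limma adjusted p = 6.6e-05).

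AT2G24240 was at 1247, 1674 and 2272 in the endodermis and at 507.5, 784.6 and 708.2 in the stele, with 66.1, 49.3, 59.0 and 125.2 in the epidermis. Endodermis over stele was 2.54-fold (limma adjusted p = 0.0019). AT2G45820 was at 7133, 5942 and 7772 in the endodermis and at 3480.0, 2422 and 4069.9 in the stele, with 387.7, 306.5, 269.4 and 820.9 in the epidermis. For both genes the endodermis did not overlap with the stele. Endodermis over stele was 2.12-fold for AT2G45820 (adjusted p = 0.015). That call was lost after quantile normalization (adjusted p = 0.11) and without endodermis replicate 3 (0.058) or stele replicate 2 (0.071). AT3G17020 was the named member called highest in the cortex, at 3945, 3489 and 4118 against 2370.5, 2039.8 and 2236 in the endodermis (1.73-fold, adjusted p = 0.031), a call lost without cortex replicate 1 or 3 or endodermis replicate 2 or 3 (adjusted p of 0.064 to 0.094).

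AT5G51890, whose mean was highest in the columella, was at 7879, 6076 and 3909 in the columella, 194.4, 435.8 and 86.7 in the cortex, 1621, 3248 and 491.6 in the endodermis and 1838, 1305 and 3412 in the stele. Its epidermal signals were 51.9, 35.5, 28.4 and 136.7, and epidermis replicate 4 lay above cortex replicate 3. Columella minus cortex was 4.79 (SE 0.63, limma adjusted p = 6.9e-06), and columella minus stele was 1.4998 (SE 0.63, adjusted p = 0.064), so it was not called highest. That pair passed without epidermis replicate 4, endodermis replicate 2 or 3 or stele replicate 3, with a pseudocount at the 40th percentile and with a replicate block (adjusted p of 0.028 to 0.046).

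AT1G75280 was high in both columella and stele. Its signals were 2901, 2036 and 2759 in the columella and 2357, 2840.3 and 2902 in the stele, with 227.0, 396.7 and 235.3 in the cortex and 884.7, 649.8 and 475.0 in the endodermis. In the epidermis they were 69.9, 37.2, 44.7 and 209.3. Columella and stele overlapped, and cortex was the lowest of the 4. Columella minus cortex was 3.15 (SE 0.42, limma adjusted p = 7.4e-06) and endodermis minus stele was -2.03 (SE 0.42, adjusted p = 0.0016).

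Outside the epidermis the means of most members lay far apart. The highest of the 4 other means was a median of 4.39 times the lowest (range 1.35 to 29.0), compared with 2.08 times over the 4538 probe sets. It was under 2 times for 17 members (18.7%), compared with 45.7% of the 4538, and at least 10 times for 11 members. The level members with a gene were COR47, AT1G55360, AT2G03240, AT2G38800, AT3G20015 and AT5G19120, with ranges of 1.42, 1.43, 1.49, 1.55, 1.55 and 1.54 times. The F test did not pass for 18 members, 8 of them with a gene: these 6, PDC2 and AT5G05250.

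AT1G55360 shows such a member, with 42.0, 31.3, 36.5 and 53.3 in the epidermis, 234.8, 241.9 and 244.0 in the columella and 527.8, 206.2 and 267.4 in the cortex. In the endodermis it was at 197.1, 340.0 and 328.3 and in the stele at 183.4, 250.4 and 267.9. The 4 populations overlapped throughout, and none of the epidermis arrays reached them (F test, limma adjusted p = 0.56).

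Just inside the threshold of 3 were AT5G05250 at 3.09, PMEAMT at 3.06 and a probe set with no gene at 3.02. Just outside were 2 probe sets with no gene, both at 2.98, and AT2G38240 at 2.97. AT2G38240 had mean signals of 69.0 in the epidermis, 320.0 in the columella, 205.2 in the cortex, 2354 in the endodermis and 1055 in the stele. The means of AT5G05250 were 125.6, 869.3, 789.5, 643.8 and 388.2 in the same order.

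Members fell into 5 of 36 gene lists written from loci, symbols and product words, 1 in each. The 53 members without a gene could enter no list. The 27 with a locus tag only have no product in the annotation, so they could enter only by locus. A list without a member, or with 1, is therefore not read as a result about the members. Of 23 subtilase and carboxypeptidase-like genes tested, 2 were lower in the epidermis than in each of the other 4 populations, the member SBT4.12 and SCPL45. Higher than in each were scpl18 and scpl29. SCPL45 had means of 150.3 in the epidermis, 1097 in the columella, 216.4 in the cortex, 1579 in the endodermis and 2160 in the stele, so the cortex kept it out of the members. Of 6 genes tested in the defensin-like list, 2 were lower (LCR68 and LCR69) and 0 higher. Symbol letters also brought PDF1A, PDF1B and LCR into this list, which are not defensin-like, so its counts do not describe that family. LCR69 had means of 27.8 in the epidermis, 183.6 in the columella, 84.3 in the cortex, 470.6 in the endodermis and 903.8 in the stele, below the floor of 200 in columella and cortex.

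Of 7 phenylpropanoid and flavonoid genes, HCT was lower than in each and UF3GT higher. UF3GT had a mean of 184.9 in the epidermis and 24.6 to 37.2 in the others. CCR2, a cinnamoyl-CoA reductase, had a mean of 1.60 in the epidermis and 9.71 in the columella, with 1763 in the endodermis, and was not called lower than in each. Of 5 glycolysis and sucrose genes, PDC2 was lower and 0 were higher. Of 11 stress genes, COR47 and COR27 were lower and 0 were higher. Over all probe sets tested 5.56% were lower and 2.58% higher than in each. The median of epidermis minus the mean of the other populations was -1.81 (log2) for the defensin-like list, -0.75 for phenylpropanoids, -0.21 for glycolysis, -0.20 for stress and -0.08 for the subtilase list, against 0.03 over all probe sets. The lists contain members chosen for their low epidermal signal, and the defensin-like list also holds genes of other kinds. Nothing is read from these medians.

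The 38 members with a gene lie on all 5 chromosomes, with 11, 6, 7, 4 and 10 on chromosomes 1 to 5. The nearest pair in the order of RefSeq genes of TAIR10.1 was AT4G11210 and AT4G11290, with 8 protein-coding genes between them. AT1G48600 (PMEAMT) and AT1G48750, and AT1G55210 and AT1G55360, each had 17 between them. No pair was adjacent.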

How the data were processed

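RNA of sorted protoplasts was amplified in a two-cycle protocol and labelled with biotin, per the labels' protocols. The authors deposited linear intensity values, made with MAS5 per the submitters' processing notes (version not given in the sources used here). The table holds 22810 probe sets, of which 64 are controls and 77 organellar, and identical columns were found in 0 of 120 pairs. The members and the gene lists were chosen with earlier results of these data known.

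The rule for members used linear means. Tests used log2(signal + 10.21), the 20th percentile, over the 16221 probe sets that reached 38.05, the 40th percentile, in 3 or more arrays. The model of limma 3.58.1 (R 4.3.3) had a mean per population, used all 16 arrays and left 11 residual degrees of freedom (lmFit, contrasts.fit, eBayes with trend), with 2-sided tests and Benjamini-Hochberg adjustment at 0.05. A spread beside a mean is the SD of arrays, and an SE belongs to a fitted difference. On simulated data the scripts were tested for what they recover. Python 3.11.15 with matplotlib 3.10.9 drew the figures.

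The array annotation pairs 13513 probe sets with 1 gene and 503 with several, and leaves 8730 without one, controls aside. A probe set without a gene was kept as nuclear, which could not be checked. Named were the 10 members with a symbol and the highest ratio, the 5 with a locus tag only and the highest ratio, the 3 with a symbol and the largest difference among those called highest in each population (none existed), the 5 with a symbol and the smallest range outside the epidermis, the 5 with a symbol and the lowest epidermal mean, the 3 on each side of the threshold and members of 36 gene lists. The markers are 30 genes in 5 classes. Alternatives were quantile normalization, equal medians, other means, floors, ratios, pseudocounts and filters, eBayes without trend, array weights, a replicate block, a fit on 12 arrays and leaving out each array.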

Additional observations from a re-analysis of the deposited data

Results flagged for a closer look

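Chance meets Dixon's criterion for an outlying array in about 1 of 20 groups when values are independent and normally distributed. Here it was applied to linear signals, and the members share their arrays, so that rate is not a measure for these counts. In 5 of 18 named members tested, 1 of the 4 epidermis arrays lay far from the other 3 by this criterion. In all 5 it was replicate 4 and it was high. PDC2 was at 93.0 in that array, with 8.75 to 18.6 in the others. ATB2 was at 138.4, with 89.4 to 97.1. MSRB5 was at 520.4, with 45.3 to 90.1. BGLU46 was at 148.2, with 46.8 to 63.8. The probe set with no gene just inside the threshold was at 256.3, with 20.0 to 47.6. Over all 91 members the criterion was met by 19 high arrays and 0 low ones in the epidermis. The share over other probe sets was not counted.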

How the results depend on the processing

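The number of members followed the limits of the rule: 57 at a ratio of 4 and 170 at a ratio of 2, 51 at a floor of 400 and 148 at a floor of 100, and 38 with named genes only. Quantile normalization gave 93 (87 shared), equal medians 83 (79 shared), population medians 105 (85 shared) and geometric means 98 (88 shared). Leaving out 1 array gave 78 to 116 members. Members higher in columella than in stele, 1 in all, were 2 after quantile normalization, with a pseudocount at the 40th percentile and with array weights. Members highest in the columella were 1 with that pseudocount, and members highest in the cortex were 1 with array weights. Between samples of the same replicate number, deviations from the population means correlated at -0.26 to 0.24 (30 pairs, 6 over 0.1). The median r was 0.004, against 0.003 for other pairs. Same-number pairs thus did not stand out at the median. Deviations cancel within a population, so the r values of different pairs depend on each other, and pairing was not tested. The main fit used no pairing. With the replicate block, columella over stele gave 3, stele over endodermis 12, and highest in columella, cortex and stele 1, 4 and 6. Leaving out 1 array gave 7 to 16 for columella over cortex (7 without columella replicate 2 or cortex replicate 3). It gave 0 to 3 for columella over stele (3 without epidermis replicate 4 or stele replicate 3, 2 without columella replicate 2 or any endodermis array, and 0 without columella replicate 1 or 3 or stele replicate 1 or 2). It gave 2 to 7 for cortex over endodermis (2 without endodermis replicate 2 or cortex replicate 3, and 3 without endodermis replicate 3 or cortex replicate 1). Cortex over stele ran from 4 to 8 (8 without epidermis replicate 4). Highest in the columella ran from 0 to 1 (1 without epidermis replicate 4, endodermis replicate 2 or stele replicate 3). Highest in the cortex ran from 0 to 4 (4 without epidermis replicate 4, 1 without endodermis replicate 1 or 3 or cortex replicate 3, and 0 without endodermis replicate 2 or cortex replicate 1). Highest in the endodermis ran from 5 to 13 (5 without endodermis replicate 3 and 7 without replicate 1), and highest in the stele from 1 to 4 (1 without stele replicate 2). The cause of these shifts was not tested. The members with both endodermis and stele above both columella and cortex, an alternative count chosen after seeing the data, ran from 14 to 22, and the F test from 69 to 77. Of 41 differences between populations in single members, 37 were called. Of these 22 kept the call under all 25 alternatives and 15 lost it at least once, 2 of the 4 others gained one, and 0 reversed. Signal over background limits the order of the lowest epidermal values.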
